A study of Mus musculus with 2 samples.

Results

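The genes described here are 10 members of the vascular endothelial growth factor, Tie and angiopoietin systems: the ligands Vegfa, Vegfb, Vegfc and Pgf, the receptors Kdr, Flt1 and Flt4, the Tie receptor Tek, and its ligands Angpt1 and Angpt2. They were taken by symbol from a list and matched by Ensembl identifier, and all 10 were found among the 43346 Ensembl genes, 21474 of them protein-coding, that both gene tables hold. Total RNA was measured in the facial prominence of B6NCrl mouse embryos at embryonic day 14.5. There is 1 group of 2 libraries, biological replicate 2 and biological replicate 1, and the labels give no treatment, mutation or control. Each sample is labelled as the face of 1 pup, taken on separate days, while the sex label reads as a pool of males and females, and the labels do not settle how many embryos entered a library. Both samples also carry the same donor label, so whether the SDs below measure spread between embryos or only between samples is not settled. The collection day and the library cannot be told apart.

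Vegf ligands are secreted proteins that bind receptor tyrosine kinases on the surface of endothelial cells and make vessels sprout, branch and become permeable. Kdr carries most of that signal in blood vessels, Flt1 binds Vegfa tightly but signals weakly, and Flt4 serves mainly the lymphatic vessels. Tek is the angiopoietin receptor of endothelial cells: Angpt1, made largely by mesenchyme and mural cells, activates it and steadies vessels, while Angpt2, made by endothelium itself, mostly opposes Angpt1.

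The libraries held 37738872 expected counts for replicate 2 and 30919488 for replicate 1, made from 10.0 ng of RNA each. Expected counts are the authors' estimates of reads per gene, and TPM is the deposited level scaled to transcript length and to depth, so that levels can be compared between genes. A count of 0 would allow up to 0.0589 TPM in replicate 2, against 0.0761 TPM in replicate 1 at an effective length of 2000 bases (3 counts). Spike-in RNA took 5.43% of the counts of replicate 2 and 3.22% of those of replicate 1. Across the 15715 genes with a mean of 1 TPM or more, the median log2 ratio of replicate 2 over replicate 1, on log2(TPM + 1), was -0.14 (SD 0.36 over genes), and each ratio below is to be read against that shift. In a bulk sample, fewer cells of a type and less RNA per cell cannot be told apart. The tissue label was checked against 6 transcription factors of facial mesenchyme, of which 6 were at 1 TPM or more in each library: Prrx1 had 78.8 TPM in replicate 2, against 80.1 TPM in replicate 1, and the lowest, Pax9, had 6.81 TPM in replicate 2, against 7.47 TPM in replicate 1. The 10 endothelial markers were all at 1 TPM or more as well. They ranged from Egfl7, a secreted endothelial factor, with 84.4 TPM in replicate 2, against 96.6 TPM in replicate 1, to the transcription factor Erg, with 6.30 TPM in replicate 2, against 7.29 TPM in replicate 1.

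All 10 vessel signalling genes reached 1 TPM in both libraries, where 63.9% of protein-coding genes did. Their mean levels ran from 33.3 TPM for Vegfb to 3.51 TPM for Vegfa, the Vegf ligand best known for driving vessel growth and here the lowest of the 10. In descending order of mean TPM they were Vegfb, Kdr, Tek, Angpt1, Pgf, Flt1, Vegfc, Angpt2, Flt4 and Vegfa. Of the 9 pairs of neighbours in that order, 1 pair, Tek and Angpt1, had library values that overlapped. Flt1 and Vegfc did not overlap by library values, but their counting intervals did in 1 library, and those of Angpt2 and Flt4 did in both, so the order of each of these pairs is not settled beyond counting error. Counting intervals are exact Poisson intervals at the 95% level on the expected counts and cover counting error only. The counts behind the levels ran from 196 for Vegfa in replicate 1 to 3015 for Kdr in replicate 2.

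**Figure D1:**
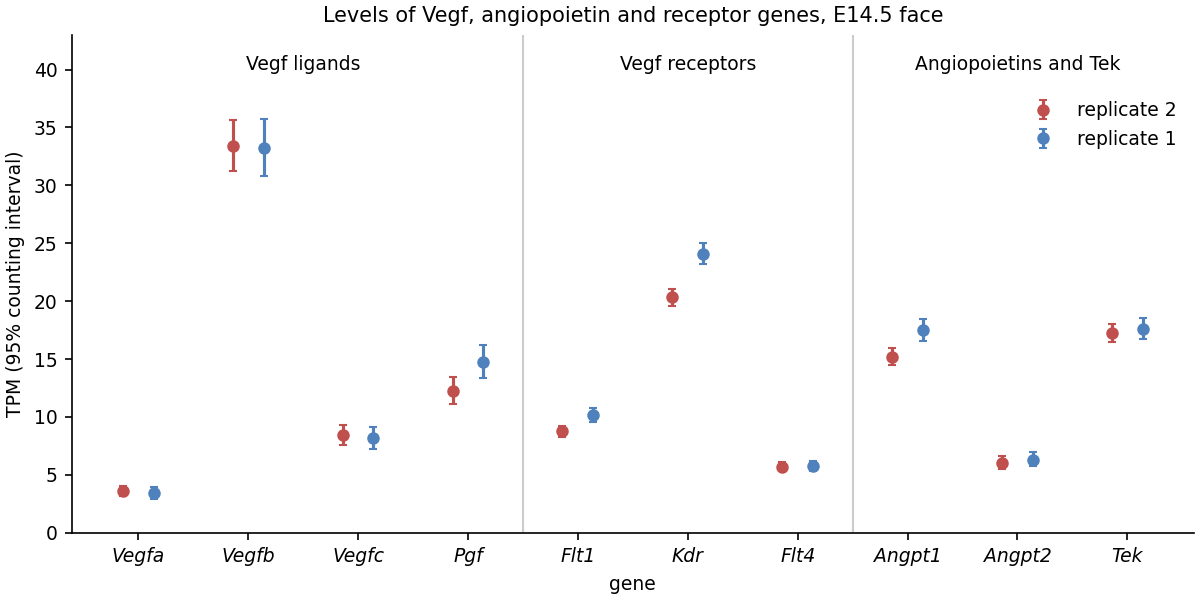
TPM of each of the 10 genes (horizontal axis, grouped by role) in replicate 2 (red) and replicate 1 (blue), with bars for the 95% Poisson counting interval. Vegfb is highest at 33.4 TPM in replicate 2, against 33.2 TPM in replicate 1, and Vegfa lowest at 3.59 TPM in replicate 2, against 3.42 TPM in replicate 1. The points of a gene lie close together except for Kdr, Pgf, Angpt1 and Flt1.

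Vegfb, a ligand of Flt1 linked to the upkeep of vessels in heart and fat, had 33.4 TPM in replicate 2, against 33.2 TPM in replicate 1 (mean 33.3 ± 0.12 TPM, SD, n = 2). With a higher mean than 79.9% of protein-coding genes, it alone made up 57.9% of the summed TPM of the 4 Vegf ligands in replicate 2 and 55.8% in replicate 1. The gene lies on chromosome 19 (mm10, chr19:6982473-6987651, minus strand). Pgf, placental growth factor, which also binds Flt1 and not Kdr, had 12.3 TPM in replicate 2, against 14.7 TPM in replicate 1 (mean 13.5 ± 1.76 TPM, SD, n = 2) and made up 21.3% of that sum in replicate 2 and 24.8% in replicate 1. It lies at chr12:85166635-85177790, minus strand. The Flt1 ligands Vegfb and Pgf were therefore the pair of higher ligands in each library.

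Vegfc, the main ligand of Flt4 and the driver of lymphatic sprouting, had 8.41 TPM in replicate 2, against 8.17 TPM in replicate 1 (mean 8.29 ± 0.17 TPM, SD, n = 2; chr8:54077606-54187096, plus strand). Vegfa had 3.59 TPM in replicate 2, against 3.42 TPM in replicate 1 (mean 3.51 ± 0.12 TPM, SD, n = 2; chr17:46016993-46032369, minus strand), a mean above 45.3% of protein-coding genes. Its share of the ligand sum was 6.23% in replicate 2 and 5.74% in replicate 1. Within a library, Vegfb stood above Vegfa 9.29-fold in replicate 2 (95% counting interval 8.10 to 10.7) and 9.72-fold in replicate 1 (8.29 to 11.4). Vegfc stood above Vegfa 2.34-fold (2.00 to 2.75) in replicate 2 and 2.39-fold (1.99 to 2.88) in replicate 1, so the order of the ligands was the same in both. The deposited TPM of Vegfa in replicate 1 lies below the lower end of the authors' own interval for it (3.47 to 5.18 TPM), and the authors' posterior mean was 4.27 TPM in replicate 2, against 4.30 TPM in replicate 1. By the posterior mean, too, Vegfa stayed the lowest of the 10. The posterior means of Vegfb (32.8 TPM in replicate 2, 32.5 TPM in replicate 1) and Vegfc (8.25 TPM in replicate 2, 7.96 TPM in replicate 1) lie below their deposited TPM. By posterior means each fold over Vegfa is therefore smaller than given above, and the counting intervals leave that difference out.

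Vegfa RNA is spliced into forms named by the length of the mature mouse protein, which differ in whether exons 6 and 7, the parts that bind heparan sulfate and neuropilins, are kept. The VEGF120 form joins exon 5 straight to exon 8 and diffuses freely, the VEGF164 form keeps exon 7, and the VEGF188 form keeps both and stays bound to the matrix. The sequences across the end of exon 5 (chr17:46024065-46024079) are shown because they define the forms to which the tables assign the reads. The transcripts are those of GENCODE M21 on mm10, written on the sense strand, with the first 15 bases of the joined exon in capitals: from exon 8 (chr17:46018865-46018879) for VEGF120, exon 7 (chr17:46021108-46021122) for VEGF164 and exon 6 (chr17:46022334-46022348) for VEGF188.
VEGF120 junction: aacaaagccagaaaaATGTGACAAGCCAAG
VEGF164 junction: aacaaagccagaaaaTCACTGTGAGCCTTG
VEGF188 junction: aacaaagccagaaaaAAAATCAGTTCGAGG
The whole of exon 7 (chr17:46020991-46021122, minus strand, 132 bases, no capitals) is the stretch that VEGF164 has and VEGF120 lacks.
Vegfa exon 7: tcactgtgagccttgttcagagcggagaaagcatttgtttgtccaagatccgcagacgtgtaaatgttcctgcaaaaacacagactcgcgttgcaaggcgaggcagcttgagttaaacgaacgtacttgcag

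The deposited transcript tables assigned Vegfa differently in the 2 libraries. The VEGF164 transcript, Vegfa-202, took 52.6% of the gene's TPM in replicate 2 (1.89 TPM) and 0% in replicate 1 (listed at 0). Of the VEGF120 transcripts, Vegfa-201 took 34.2% in replicate 2 and 29.7% in replicate 1, and Vegfa-211 took 5.98% in replicate 2 and 64.6% in replicate 1. Both VEGF120 transcripts together held 40.1% in replicate 2 and 94.3% in replicate 1, so that VEGF164 led in replicate 2 and VEGF120 in replicate 1. The only other transcript of Vegfa at 5% or more in a library was the non-coding Vegfa-209, with 5.17% in replicate 2 and 0% in replicate 1. That 5.17% rests on 1.72 expected counts, 0.65% of the gene's counts, over a length of 463 bases. VEGF188 and the remaining coding forms were listed at 0 in both. Their models are short, with 1973 bases for VEGF188 and 513 and 654 bases for the others, against 3451 bases for Vegfa-202. GENCODE M21 also holds Vegfa-212 and Vegfa-213, with the coding lengths of Vegfa-202 (1104 bases) and VEGF188 (1176 bases), which the deposited transcripts lack. The form shares are limited by that annotation, and a listed 0 does not show that a form was absent.

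These shares rest on 265 expected counts in replicate 2 and 196 in replicate 1, and the authors' intervals are wide. For Vegfa-202 they were 0.608 to 2.29 TPM in replicate 2 and 4.67e-06 to 0.799 TPM in replicate 1, and for Vegfa-211 they were 0.0016 to 1.58 TPM in replicate 2 and 0.762 to 2.61 TPM in replicate 1, so each pair overlaps. The authors' posterior mean shares were less far apart, with VEGF164 at 33.1% in replicate 2 and 6.85% in replicate 1, and VEGF120 at 42.0% in replicate 2 and 65.2% in replicate 1, so that by them VEGF120 led in both libraries. The model of Vegfa-211 is uncertain: the deposited length is 3324 bases, against 975 in GENCODE M21, from which its form was read. With Vegfa-211 left out and its counts not reassigned, VEGF164 took 55.9% in replicate 2 and 0% in replicate 1. The 0% was fixed in advance, since Vegfa-202 is listed at 0 there. Whether the 140.5 expected counts of Vegfa-211 in replicate 1 belong to VEGF164 was therefore not tested. Overlap of intervals is not a test of a difference, and with 2 libraries a difference in Vegfa splicing was not tested.

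**Figure D2:**
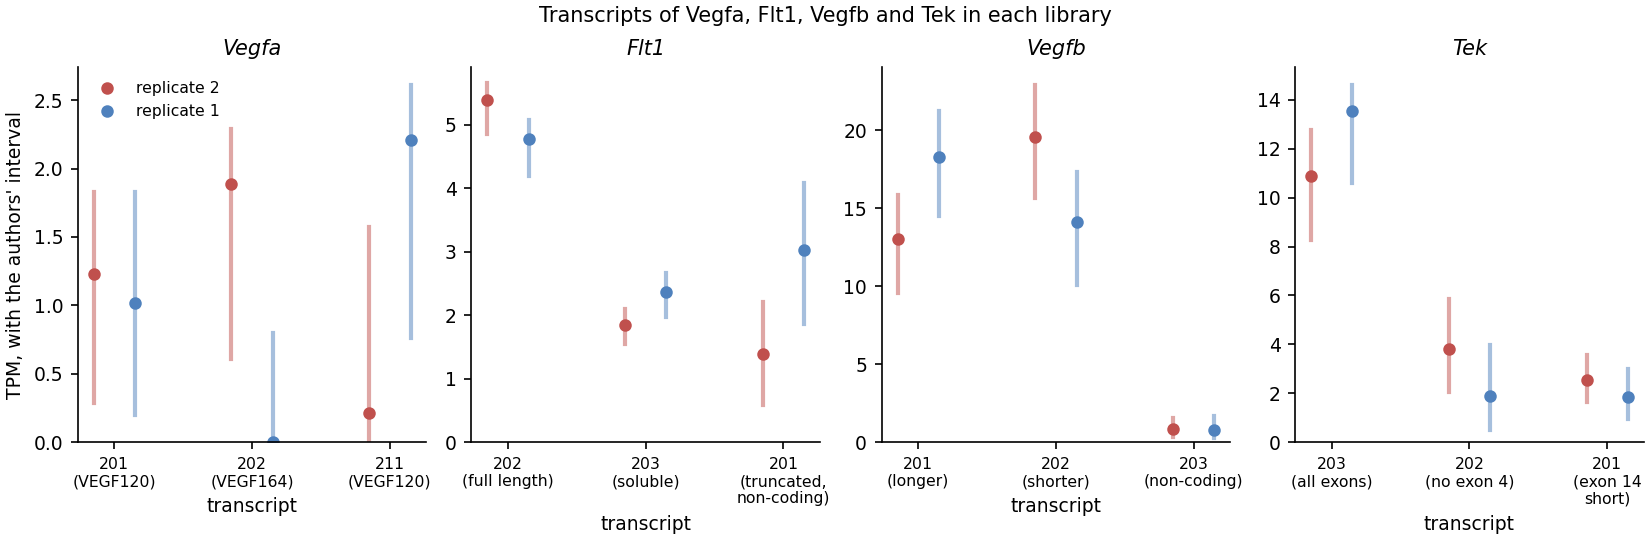
TPM of the named transcripts of Vegfa, Flt1, Vegfb and Tek (1 panel each, with separate vertical scales from 0) in replicate 2 (red) and replicate 1 (blue), with the authors' deposited intervals as bars. The bars of each transcript drawn overlap between the libraries, those of Vegfa-202 and Vegfa-211 included, although the points of Vegfa-202 are 1.89 TPM in replicate 2 and 0 in replicate 1.

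Vegfb has a pair of protein-coding transcripts that differ by 101 bases at the start of exon 6 and end in different protein tails: the protein of Vegfb-202 is the shorter and binds heparan sulfate, and that of Vegfb-201 is the longer and freely soluble. The stretch is shown because the leading transcript of Vegfb turned on it (chr19:6985481-6985596, minus strand, GENCODE M21 on mm10, with the bases that Vegfb-202 lacks in capitals).
Vegfb longer form: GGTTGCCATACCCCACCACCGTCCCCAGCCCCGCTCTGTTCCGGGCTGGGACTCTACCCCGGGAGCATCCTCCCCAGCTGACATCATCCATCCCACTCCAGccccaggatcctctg
Vegfb-202 held 58.6% of the gene's TPM in replicate 2 and 42.5% in replicate 1, while Vegfb-201 held 39.0% in replicate 2 and 55.1% in replicate 1. The authors' intervals for Vegfb-202 were 15.7 to 22.9 TPM in replicate 2 and 10.1 to 17.3 TPM in replicate 1, and those for Vegfb-201 were 9.56 to 15.8 TPM in replicate 2 and 14.5 to 21.2 TPM in replicate 1. Both coding forms were present well above 0 in each library, and the intervals of each form overlap between the libraries. Pgf and Vegfc have 1 transcript each in the deposited tables, so nothing on their splicing can be read.

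Kdr, the chief signalling receptor for Vegfa, was the highest of the 3 Vegf receptors, with 20.3 TPM in replicate 2, against 24.1 TPM in replicate 1 (mean 22.2 ± 2.68 TPM, SD, n = 2; chr5:75932827-75978458, minus strand). Flt1 had 8.76 TPM in replicate 2, against 10.2 TPM in replicate 1 (mean 9.47 ± 1.00 TPM, SD, n = 2; chr5:147561604-147726011, minus strand). Flt4 had 5.69 TPM in replicate 2, against 5.79 TPM in replicate 1 (mean 5.74 ± 0.0707 TPM, SD, n = 2; chr11:49609263-49652739, plus strand). The order Kdr, Flt1, Flt4 therefore held in each library, with no overlap. Kdr made up 58.4% of the receptors' summed TPM in replicate 2 and 60.2% in replicate 1, and Flt4 16.4% in replicate 2 and 14.5% in replicate 1.

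Kdr over Flt1 was 2.32 in replicate 2 (95% counting interval 2.17 to 2.48) and 2.37 in replicate 1 (2.21 to 2.55), with intervals that overlap. Kdr over Flt4 was 3.57 (3.31 to 3.85) in replicate 2 and 4.16 (3.83 to 4.53) in replicate 1. Receptor RNA exceeded that of the ligand Vegfa, with Kdr over Vegfa at 5.66 (4.99 to 6.44) in replicate 2 and 7.05 (6.10 to 8.20) in replicate 1. The authors' posterior means make that ratio smaller, with Kdr at 19.89 TPM and Vegfa at 4.27 TPM in replicate 2. In replicate 1 they were 23.45 TPM for Kdr and 4.30 TPM for Vegfa. Set against the summed TPM of the 10 endothelial markers, which was 356 in replicate 2 and 389 in replicate 1, Kdr amounted to 5.71% in replicate 2 and 6.20% in replicate 1, and Flt4 to 1.60% in replicate 2 and 1.49% in replicate 1.

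Flt1 also makes a soluble receptor, which ends after exon 13 by reading on into the intron, keeps the ligand-binding part and lacks the membrane and kinase parts, so that it captures Vegfa, Vegfb and Pgf outside the cell. The coding end of that form and the junction of the full-length form are shown because they part at the same base, the end of exon 13 (GENCODE M21 on mm10, minus strand). Capitals mark the 92 coding bases read from the intron in the soluble form (chr5:147639133-147639254 as a whole) and the first 30 bases of exon 14 in the full-length form (from chr5:147634494-147634523).
Flt1 soluble tail: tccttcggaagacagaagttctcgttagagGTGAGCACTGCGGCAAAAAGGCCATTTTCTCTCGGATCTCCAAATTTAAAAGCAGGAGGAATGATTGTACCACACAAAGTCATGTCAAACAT
Flt1 full-length junction: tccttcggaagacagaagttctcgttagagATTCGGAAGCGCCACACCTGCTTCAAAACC
The full-length transcript codes for 1333 residues over 30 exons, and the soluble one for 688 residues over 13 exons.

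The full-length Flt1 transcript led in both libraries, with 5.38 TPM (61.5% of the gene) in replicate 2, against 4.78 TPM (47.0%) in replicate 1. The soluble transcript had 1.85 TPM (21.1%) in replicate 2, against 2.37 TPM (23.4%) in replicate 1. Another transcript, with 12 exons, is annotated as non-coding and also stops before the membrane part, with 1.38 TPM (15.7%) in replicate 2, against 3.02 TPM (29.7%) in replicate 1. Of both coding forms the soluble one was 25.6% in replicate 2 and 33.2% in replicate 1 (mean 29.4 ± 5.35%, SD, n = 2). With the non-coding transcript counted in, soluble or truncated RNA was 36.8% in replicate 2 and 53.0% in replicate 1 (mean 44.9 ± 11.5%, SD, n = 2). As a share of expected counts it was 27.8% in replicate 2 and 38.8% in replicate 1. The authors' intervals overlapped between the libraries for the full-length (4.85 to 5.65 TPM in replicate 2, 4.20 to 5.08 TPM in replicate 1), for the soluble (1.55 to 2.09 TPM in replicate 2, 1.98 to 2.66 TPM in replicate 1) and for the non-coding transcript (0.582 to 2.21 TPM in replicate 2, 1.85 to 4.08 TPM in replicate 1).

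The Flt1 gene level depends on that mixture, because TPM divides by the mean effective length of the transcripts in each library, which was 5793 bases in replicate 2 and 5217 bases in replicate 1. By expected counts scaled to library size alone the ratio of replicate 2 over replicate 1 was 1.01 (95% counting interval 0.933 to 1.10), where the log2 ratio on TPM was -0.19. Angpt2 shares that dependence, with a mean effective length of 3167 bases in replicate 2 and 3461 bases in replicate 1. Its ratio by expected counts was 0.927, where its log2 ratio on TPM was -0.05. Kdr and Flt4 hardly have that dependence. Kdr-201 held 99.9% of the gene in replicate 2 and 99.8% in replicate 1, and the leading Flt4 transcript held 100% in replicate 2 and 99.0% in replicate 1.

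Tek had 17.2 TPM in replicate 2, against 17.6 TPM in replicate 1 (mean 17.4 ± 0.304 TPM, SD, n = 2; chr4:94739289-94874976, plus strand), second to Kdr among the 4 receptors of the 10 genes. Angpt1, its activating ligand, had 15.2 TPM in replicate 2, against 17.5 TPM in replicate 1 (mean 16.3 ± 1.62 TPM, SD, n = 2; chr15:42424723-42676977, minus strand). Angpt2 had 6.06 TPM in replicate 2, against 6.33 TPM in replicate 1 (mean 6.20 ± 0.191 TPM, SD, n = 2; chr8:18690263-18741562, minus strand). Kdr over Tek was 1.18 in replicate 2 (95% counting interval 1.12 to 1.25) and 1.37 in replicate 1 (1.28 to 1.46), the 1 pair of 13 compared within a library whose intervals lay apart between the libraries. The 13 pairs share genes, and the share of pairs of other genes that lie apart was not computed. Activating Angpt1 thus stood above Angpt2 in each library, 2.51-fold in replicate 2 (95% counting interval 2.27 to 2.78) and 2.76-fold in replicate 1 (2.48 to 3.09), intervals that overlap. Angpt1 was the 1 member with exons overlapping another annotated gene, Gm17473 on the opposite strand, and the handling of strand is not given in the sources used here. The posterior SD of its count was 0.76 in replicate 2 and 0.69 in replicate 1, and that of the other 9 members was 0 in both libraries.

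Tek has 3 protein-coding transcripts in the tables. The full one, Tek-203 with 1123 residues, led with 63.2% of the gene's TPM in replicate 2 and 76.8% in replicate 1. Tek-202, which lacks exon 4, a stretch that codes for part of the extracellular region, held 22.1% in replicate 2 and 10.6% in replicate 1. The skipped exon keeps the reading frame (153 bases, chr4:94799127-94799279, plus strand, GENCODE M21 on mm10, no capitals) and is shown because it is the largest stretch by which the Tek proteins differ.
Tek exon 4: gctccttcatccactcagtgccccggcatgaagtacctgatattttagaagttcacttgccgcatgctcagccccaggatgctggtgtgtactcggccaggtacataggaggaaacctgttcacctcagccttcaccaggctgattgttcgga
Tek-201, shorter by 3 bases at the end of exon 14, held 14.7% in replicate 2 and 10.4% in replicate 1. The authors' intervals for Tek-202 were 2.05 to 5.84 TPM in replicate 2 and 0.489 to 3.95 TPM in replicate 1 and overlap. The leading Angpt2 transcript, coding for 496 residues, held 89.9% of its gene in replicate 2 and 100% in replicate 1, and Angpt1 has 1 transcript in the tables.

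Of the 7 members with more than 1 transcript, 5 had the same leading transcript in both libraries, where 90.6% of 10374 such genes did, and the exceptions were Vegfa and Vegfb. Among the 29 transcripts of these 7 genes, the authors' intervals lay apart between the libraries for 1, Kdr-201 (19.2 to 20.6 TPM in replicate 2, 22.5 to 24.3 TPM in replicate 1), where 6.42% of 60998 transcripts did. For Kdr-201 the gap is one of gene level, since hardly any other Kdr transcript was present. The single transcript of Angpt1, which falls outside that count, also had intervals that lay apart (14.1 to 15.6 TPM in replicate 2, 16.1 to 17.9 TPM in replicate 1).

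The ratio between the libraries was small for each of the 10 genes. None passed 1.5-fold in either direction, where 5.23% of 15715 genes did, 2.62% higher and 2.61% lower in replicate 2. Of all genes past that fold, 50.1% were higher in replicate 2, but 81% were with CPM, the expected counts scaled to library size, under TMM or DESeq2 factors. That share was 64.2% by FPKM and 60% by TPM rescaled without spike-ins, other sequences and mitochondrial genes. The members' log2 ratios ran from -0.25 for Pgf to 0.05 for Vegfa, with a median of -0.04 beside -0.14 for all genes. By TPM, 6 of 10 members lay above the median of all genes, where 50% of genes do by construction: Vegfa, Vegfb, Vegfc, Tek, Angpt2 and Flt4. Pgf, Kdr, Angpt1 and Flt1 lay below. With no filter on low values the median of all 43346 genes is 0.00, and 3 of 10 members, Vegfa, Vegfb and Vegfc, lay above it. Most of those genes have a mean under 1 TPM, where log2(TPM + 1) ratios lie close to 0. The share of all genes above that median was not computed, so the 3 of 10 has no background beside it.

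The direction of these ratios was read in 5 units and scalings: TPM, FPKM, TPM rescaled without spike-ins, other sequences and mitochondrial genes, and CPM with TMM or DESeq2 factors. Vegfa, Vegfb and Vegfc were higher in replicate 2 in 5 of 5, and Pgf, Kdr and Angpt1 lower in 5 of 5. Flt1, Flt4, Tek and Angpt2 changed sign, being higher in replicate 2 in 2, 4, 4 and 2 of the 5. These scalings do not move all genes alike, since CPM leaves out the scaling to transcript length. From TPM to CPM with TMM factors, Flt1 went from -0.19 to 0.09 and Angpt2 from -0.05 to -0.03. The all-gene median log2 ratio was -0.14 by TPM, -0.06 by FPKM, -0.07 by rescaled TPM and 0.00 with TMM and DESeq2 factors. Against that median, Vegfa, Vegfb, Vegfc, Flt4 and Tek lay above it in 5 of 5, Pgf, Kdr and Angpt1 below it in 5 of 5, Flt1 above it in 2 and Angpt2 above it in 3. All 5 rest on the same counts, so they are not independent checks. The share of all genes that keep their sign in 5 of 5 was not computed.

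By expected counts over all counts of a library, the 95% counting interval of the ratio held 1 for 8 of 10 members, the exceptions being Kdr at 0.893 (0.848 to 0.941) and Angpt1 at 0.920 (0.857 to 0.989). The interval of Kdr stayed below 1 with TMM factors (0.939, 0.891 to 0.989), DESeq2 factors and a total without spike-ins and other sequences. That of Angpt1 held 1 in each of these 3 (0.966, 0.899 to 1.04 with DESeq2 factors), while that of Tek lay above 1 in each of them (1.10, 1.03 to 1.18 with TMM factors). Counting error leaves out the spread between embryos, and no member is called different. The share of all genes whose interval leaves out 1 was not computed, so these counts of members have no background beside them.

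**Figure D3:**
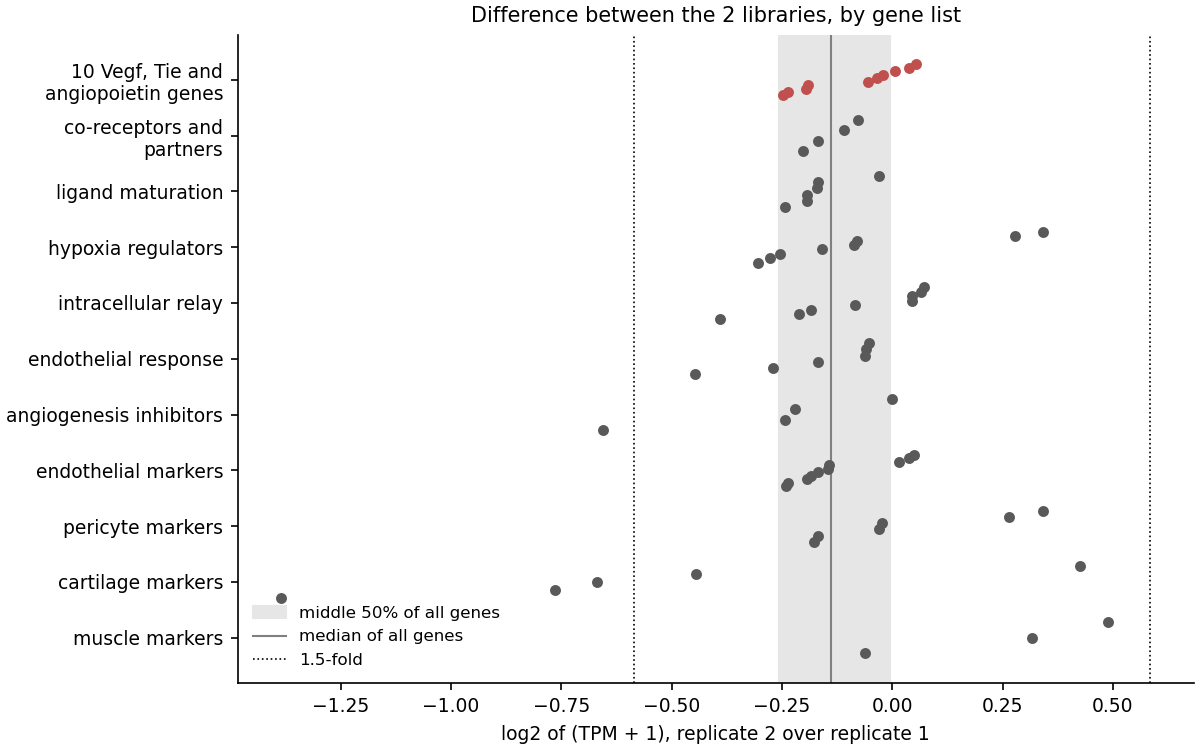
Log2 ratio of TPM + 1 of replicate 2 over replicate 1 (horizontal axis) for each gene with a mean of 1 TPM or more, by list, with the 10 vessel signalling genes in red. The grey band holds the middle 50% of all genes, the line is their median of -0.14, and the dotted lines mark 1.5-fold: the 10 genes lie between -0.25 and 0.05, while cartilage markers reach -1.39.

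Other genes of the pathway came from 7 lists that hold 39 genes, and 37 were at 1 TPM or more in each library. Of those 37, 0 were past 1.5-fold higher in replicate 2 and 1 was past it lower, and their median log2 ratio was -0.17. Of all genes, 2.62% were past that fold higher and 2.61% lower, their median was -0.14, and 63.9% of protein-coding genes were at 1 TPM or more in both libraries. The remaining ligands were Vegfd, which like Vegfc binds Flt4, with 7.61 TPM in replicate 2, against 8.14 TPM in replicate 1, and Angpt4, under the threshold with 0.84 TPM in replicate 2, against 0.52 TPM in replicate 1. Vegfc over Vegfd was 1.11 (95% counting interval 0.957 to 1.28) in replicate 2 and 1.00 (0.852 to 1.18) in replicate 1, and both intervals hold 1.

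All 4 co-receptors and partners reached 1 TPM, and their summed TPM was 104 in replicate 2 and 116 in replicate 1. Nrp1, the neuropilin that presents VEGF164 to Kdr and is also a semaphorin receptor of nerves and mesenchyme, had 53.2 TPM in replicate 2, against 59.8 TPM in replicate 1, which put it above Kdr 2.62-fold in replicate 2 (95% counting interval 2.51 to 2.73) and 2.48-fold in replicate 1 (2.37 to 2.59). Nrp2, the partner of Flt4, had 31.3 TPM in replicate 2, against 33.8 TPM in replicate 1. Tie1, an orphan receptor that pairs with Tek, had 16.9 TPM in replicate 2, against 19.6 TPM in replicate 1. Tek over Tie1 was close to 1, at 1.02 (0.954 to 1.09) in replicate 2 and 0.901 (0.839 to 0.969) in replicate 1. Ptprb, the endothelial phosphatase that acts on Tek, was the lowest of the 4 with 2.28 TPM in replicate 2, against 2.46 TPM in replicate 1.

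**Figure D4:**
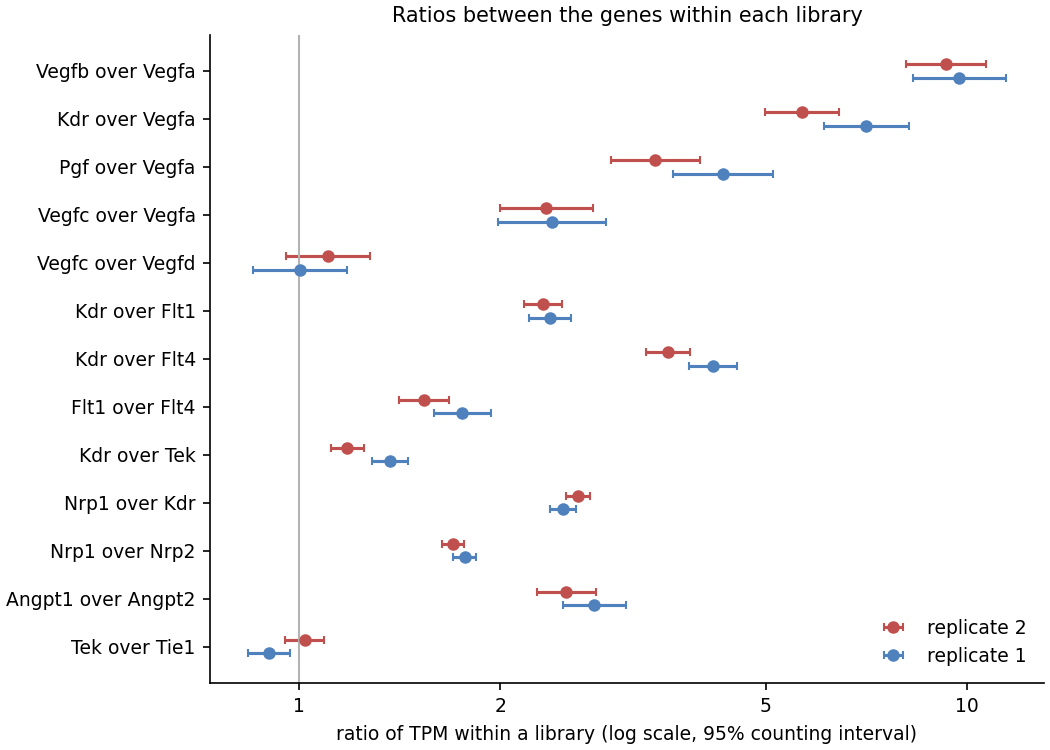
Ratios of TPM between pairs of genes within each library (horizontal log axis) for replicate 2 (red) and replicate 1 (blue), with 95% counting intervals. The intervals of the libraries overlap for 12 of the 13 pairs drawn, among them Vegfb over Vegfa at 9.29 in replicate 2 and 9.72 in replicate 1, and lie apart for Kdr over Tek, at 1.18 in replicate 2 and 1.37 in replicate 1. No share over pairs of other genes was computed. Tek over Tie1 and Vegfc over Vegfd lie near 1.

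The 6 genes on the ligand maturation list all reached 1 TPM. They ran from the proprotein convertase Pcsk5, with 16.0 TPM in replicate 2, against 18.4 TPM in replicate 1, to Ccbe1, the cofactor of Vegfc cleavage, with 1.52 TPM in replicate 2, against 1.88 TPM in replicate 1. The 8 genes of the oxygen-sensing pathway, which controls Vegfa transcription, all reached 1 TPM too. Their highest was Hif1a, the hypoxia-inducible factor subunit, with 70.0 TPM in replicate 2, against 83.8 TPM in replicate 1, and their lowest was its relative Epas1, with 11.1 TPM in replicate 2, against 9.00 TPM in replicate 1. Vegfa thus had a lower mean level than each of the 8 genes on that list.

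The 8 genes that relay the receptors' signal inside the cell were all at 1 TPM or more, from the kinase Akt1, with 63.8 TPM in replicate 2, against 61.8 TPM in replicate 1, to the lowest by mean, Foxo1, a transcription factor that Akt signalling shuts off, with 6.91 TPM in replicate 2, against 6.67 TPM in replicate 1. Most of these genes are active in many cell types. Of the 7 genes that respond to Vegf in endothelium, 6 reached 1 TPM. The apelin receptor Aplnr was highest, with 47.6 TPM in replicate 2, against 49.6 TPM in replicate 1, and Egr3, an immediate early gene, was under the threshold with 0.60 TPM in replicate 2, against 0.69 TPM in replicate 1.

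All 4 angiogenesis inhibitors reached 1 TPM, and 3 of them had higher levels than any of the 10 members. The matrix protein Thbs2 had 107 TPM in replicate 2, against 107 TPM in replicate 1, and its relative Thbs1 had 58.9 TPM in replicate 2, against 69.9 TPM in replicate 1. Cnmd, chondromodulin, a protein that keeps cartilage free of vessels, had 95.4 TPM in replicate 2, against 151 TPM in replicate 1 and was the gene past 1.5-fold, lower in replicate 2. Vash1, vasohibin, made by endothelium, had 8.38 TPM in replicate 2, against 9.92 TPM in replicate 1. Beside Cnmd, the summed TPM of 5 cartilage markers was 381 in replicate 2 and 667 in replicate 1, none was at 0, and 3 of them, Col2a1, Matn1 and Acan, were past 1.5-fold lower, while Col10a1 was higher in replicate 2, with 4.91 TPM in replicate 2, against 3.40 TPM in replicate 1. The part of the cartilage difference in the level of Cnmd was not tested.

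Among markers of the vessel cells, the 10 endothelial markers had a median log2 ratio of -0.16, beside -0.14 for all genes and -0.04 for the 10 members, with 0 past 1.5-fold and 0 at 0. Of 3 lymphatic markers, 3 reached 1 TPM. Prox1, the transcription factor that defines lymphatic endothelium, had 3.13 TPM in replicate 2, against 3.56 TPM in replicate 1, below Flt4 in both. Lyve1 had 14.7 TPM in replicate 2, against 13.9 TPM in replicate 1, and Pdpn, which many epithelial and bone cells also make, had 51.1 TPM in replicate 2, against 56.8 TPM in replicate 1. The 6 pericyte markers, among them the receptor Pdgfrb with 34.5 TPM in replicate 2, against 39.1 TPM in replicate 1 and the channel subunit Abcc9 with 5.58 TPM in replicate 2, against 5.69 TPM in replicate 1, summed to 99.4 TPM in replicate 2, against 101 TPM in replicate 1, with 0 past 1.5-fold. Within that sum, Rgs5, a regulator of G protein signalling, was higher in replicate 2, with 11.4 TPM in replicate 2, against 8.78 TPM in replicate 1. The channel subunit Kcnj8 was higher as well, with 18.1 TPM in replicate 2, against 14.9 TPM in replicate 1, and both were chosen after their values were seen. The part of the pericyte markers in the levels of the 10 genes was not tested.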

How the data were processed

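Gene and transcript tables of 2 total RNA libraries were used, built on mm10 with GENCODE M4 as the companion texts state. The aligner, trimming, strand setting and quantifier version were not given in the sources used here. The authors estimated the expected counts per gene or transcript for each library separately, per the labels and headers of the deposited files. TPM and FPKM are the authors' length- and depth-scaled values, deposited with posterior means and intervals. A transcript's share is the percent of its gene's TPM that the authors deposited. Positions, exons and sequences came from GENCODE M21 transcripts on mm10. The deposited length matched M21 for 29 of 32 member transcripts, and not for Vegfa-211 and the single transcripts of Vegfc and Angpt1.

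The members and lists were chosen with earlier results of these data known. All 10 members are named, and of other lists the highest and lowest mean, or all in lists of 4 or fewer. Matn1, Acan, Sox9, Rgs5 and Kcnj8 were named after their values were seen. With 2 libraries no test was made (an exact two-sided permutation test cannot give a p under 0.5), and no genes of like pattern can be named. Being expressed meant 1 TPM or more in both libraries. Ratios used log2(TPM + 1), which understates change in low genes, for genes with a mean of 1 TPM or more. Intervals (95%, exact Poisson or binomial) cover counting error only. Depth was 37738872 counts for replicate 2 and 30919488 for replicate 1. Alternatives were other thresholds, pseudocounts, units, scalings, filters and share definitions, and each library alone; posterior means, centring, other totals for count ratios and leaving out Vegfa-211 were added after seeing the data. The ratio code was tested on simulated data. Scaling factors came from DESeq2 1.42.0 and edgeR 4.0.16 in R 4.3.3, on rounded expected counts, and the rest from scipy 1.17.1, pandas 2.3.3, numpy 2.4.6, matplotlib 3.10.9 and Python 3.11.15.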

Additional observations from a re-analysis of the deposited data

How the results depend on the processing

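The count of members past 1.5-fold stayed at 0 under other pseudocounts, units, scalings and filters and at 2-fold. The median member log2 ratio was -0.04, and 0.11 with CPM under TMM factors and 0.11 under DESeq2 factors, where the median of all genes moves to 0.00. The TPM ratio centred on the median of all genes was 0.09. The Flt1 soluble or truncated share of 44.9% became 33.3% as a share of expected counts and 29.4% over protein-coding transcripts alone, which leaves out the non-coding Flt1 transcript. The leading transcript was shared by 5 of 7 members, and by 2 of 4 over protein-coding transcripts alone, where fewer members have more than 1. Each library alone gave 10 to 10 members expressed, 37 to 37 pathway genes, a VEGF120 share of 40.1% to 94.3%, a VEGF164 share of 0% to 52.6% and a Flt1 share of 36.8% to 53.0%, so 1 library decides each Vegfa share. The Vegfa posterior mean over both libraries was 4.29 TPM, against 3.51 TPM. The interval of the count ratio held 1 for 8 members with each library total tried, but not for the same members, and no share over all genes was computed. At 5 TPM, 9 members and 32 pathway genes were expressed. No paired analysis was possible because there is 1 group, whose replicate numbers pair no samples. Outliers cannot be tested for with 2 libraries.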

Other observations

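The remaining cell types were read from markers, all of which reached 1 TPM in both libraries. Of 4 arterial and venous markers, the venous receptor Ephb4 was highest with 44.0 TPM in replicate 2, against 55.3 TPM in replicate 1. Its arterial ligand Efnb2 had 23.2 TPM in replicate 2, against 24.0 TPM in replicate 1, the venous factor Nr2f2 had 26 TPM in replicate 2, against 27.1 TPM in replicate 1, and the arterial connexin Gja5 had 5.78 TPM in replicate 2, against 6.0 TPM in replicate 1. Of 4 macrophage markers, Csf1r had 25.5 TPM in replicate 2, against 25.7 TPM in replicate 1, and Mrc1 had 15.9 TPM in replicate 2, against 16.9 TPM in replicate 1. Adgre1 had 8.71 TPM in replicate 2, against 7.92 TPM in replicate 1, and Cx3cr1 had 7.42 TPM in replicate 2, against 9.15 TPM in replicate 1.

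Platelets and their precursors store angiopoietin and Vegf proteins, and their markers were present. Pf4 had 95.5 TPM in replicate 2, against 75.7 TPM in replicate 1, and Itga2b had 5.05 TPM in replicate 2, against 4.92 TPM in replicate 1. Among globins, the embryonic Hbb-y was lower in replicate 2, with 283 TPM in replicate 2, against 1152 TPM in replicate 1. The later globins Hbb-bs and Hba-a1 had 7921 and 5336 TPM in replicate 2, against 6073 and 4770 TPM in replicate 1, and near-identical globin copies make their levels uncertain.

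Cartilage and muscle markers were as follows. The cartilage collagen Col2a1 had 285 TPM in replicate 2, against 484 TPM in replicate 1, and Col10a1, the collagen of late cartilage, 4.91 TPM in replicate 2, against 3.40 TPM in replicate 1. Matn1, chosen after its values were seen, had 39.3 TPM in replicate 2, against 104 TPM in replicate 1, and Acan, chosen in the same way, 15.3 TPM in replicate 2, against 24.9 TPM in replicate 1. In skeletal muscle, Acta1 had 2448 TPM in replicate 2, against 1743 TPM in replicate 1, Myh3 had 372 TPM in replicate 2, against 298 TPM in replicate 1, and Myog had 170 TPM in replicate 2, against 177 TPM in replicate 1. Their part in the levels of the 10 vessel genes was not tested.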
